A study of Mus musculus with 8 samples.

Results

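Open chromatin was examined at 45 genes of the cell cycle and of DNA replication in 4 populations of mouse common myeloid progenitors. The genes were listed by their known roles: 18 replication genes, 12 cyclins and cyclin-dependent kinases (CDKs), 5 CDK inhibitors, 4 genes of the E2F and RB pathway and 6 genes of mitosis and proliferation. They were chosen with earlier results of these data known, so comparisons of the members with all loci are not independent of the data. A locus was the gene body on the mm10 mouse genome extended by 10 kb on each side. All 45 genes had a locus, of 21887 protein-coding loci, and all 45 were among the 18458 loci that had a peak in at least 2 libraries and were tested.

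The assay was ATAC-seq, which uses a transposase to cut and tag accessible DNA, on cells sorted from bone marrow. All mice were wild-type C57BL/6. All populations were KIT+ CD16/32-, and each had 2 libraries. C2 cells were CD34bright CD41+ CD9+, C18 cells CD34dim CD41+ CD9+ CD48dim, C13 cells CD34dim CD41- CD9-, and C10 cells CD34dim CD41+ CD9+ CD48bright. The labels give neither the age of the mice nor the animals behind each library, and the series text names partly different clusters, so the names here are those of the sample titles. Replicate libraries may thus be technical replicates, and every p-value rests on no more than their spread.

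Cells license replication origins in G1, when ORC, CDC6 and CDT1 load the MCM helicase onto DNA, and they fire these origins in S phase, when CDC45 and GINS join the helicase. Cyclin D with CDK4 or CDK6, and then cyclin E with CDK2, phosphorylate RB, which frees E2F factors to drive the genes of G1/S, while inhibitors of the INK4 family (p18, p19) and the CIP/KIP family (p21, p27, p57) hold these kinases back. Genes of G2 and mitosis are controlled mainly through CHR and CCAAT elements bound by MuvB complexes and NF-Y. In marrow, progenitors divide often and stem cells rarely, and CDK6 and p57 are known for their part in that difference.

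The peak lists were called separately in each library and hold no read counts, so depth is unknown and no counting interval can be given. The F-Seq lists, used where no caller is named, held 100000 peaks in every library. The lists of C18 stood apart: their peaks were narrow, with median widths of 491 and 618 bases where the other 6 libraries had 691 to 800, and HOMER listed 72379 and 83548 peaks in C18 against 171712 to 260118 elsewhere. Covered bases were scaled to the same total, which multiplied the values of C18 by 1.43 and 1.13 and the others by 0.885 to 1.00. Without scaling, the median log2 difference of all tested loci moved from 0.06 to 0.17 for C2 minus the average of C10 and C18, from -0.06 to 0.19 for C13 minus that average, and from -0.15 to 0.27 for C10 against C18. Of 8 progenitor marker genes with a listed start, all 8 had that start under a peak in every library, against 3 of 4 megakaryocyte, 2 of 5 granulocyte-monocyte, 1 of 5 erythroid and 1 of 5 lymphocyte marker genes and 0 of 4 of stroma and endothelium, all 4 of which were under a peak in some library. In C13, set against the mean of C10 and C18, 2 of 7 stroma and endothelium loci (Cdh5 and Cxcl12) and 2 of 7 lymphocyte loci (Pax5 and Cd2) were higher. So was 1 of 7 granulocyte-monocyte loci (Irf8). Lower were 2 of 6 erythroid loci (Epor and Alas2), 2 of 5 megakaryocyte loci (Gp9 and Gp1ba) and 1 of 10 progenitor loci (Gata2). Of all tested loci 3.11% were higher and 3.74% lower. The part of stroma, endothelium or lymphocytes in the results was not tested. In these bulk libraries, fewer cells with an open site and a less open site in each cell cannot be told apart.

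The gene starts were read first, because their sequence differs between the roles. Of the 45 members, 33 matched a listed start in RefSeq (GRCm38.p6), with 38 starts in all. In windows from 250 bases before to 50 bases after each start, both strands were searched for E2F letters (TTTCCCGC, TTTGGCGC, TTTCGCGC or TTTGCCGC), for CHR letters (TTTGAA or TTCGAA), for CCAAT and for the GC box GGGCGG. The stretches below are the 150 bases before the start, 5′ to 3′ on the transcribed strand, with E2F, CHR and CCAAT letters of either strand in capitals. Mcm6 (chr1:128359706-128359855, minus strand), Mcm5 (chr8:75109359-75109508, plus) and Cdc6 (chr11:98908001-98908150, plus) are shown as replication genes with E2F letters. Cdk1 (chr10:69352913-69353062, minus) holds all 3 kinds of letters. Ccnb2 (chr9:70421555-70421704, minus) and Top2a (chr11:99024190-99024339, minus) show repeated CCAAT letters, and both starts of E2f2 (chr4:136172124-136172273 and chr4:136180632-136180781, plus) are shown because E2f2 had the largest difference below zero among the members between C10 and C18.
Mcm6: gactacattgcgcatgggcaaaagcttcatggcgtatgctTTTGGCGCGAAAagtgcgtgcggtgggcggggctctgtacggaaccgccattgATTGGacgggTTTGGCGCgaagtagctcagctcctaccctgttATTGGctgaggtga
Mcm5: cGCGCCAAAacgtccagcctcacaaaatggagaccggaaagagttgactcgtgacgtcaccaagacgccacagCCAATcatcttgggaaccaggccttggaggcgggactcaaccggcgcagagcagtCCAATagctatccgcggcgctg
Cdc6: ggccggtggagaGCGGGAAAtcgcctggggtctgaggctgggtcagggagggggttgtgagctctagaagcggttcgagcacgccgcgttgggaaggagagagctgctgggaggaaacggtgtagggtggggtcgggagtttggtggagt
Cdk1: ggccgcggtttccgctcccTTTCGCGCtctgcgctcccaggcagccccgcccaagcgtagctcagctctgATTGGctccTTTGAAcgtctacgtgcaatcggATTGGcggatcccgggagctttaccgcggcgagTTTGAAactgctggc
Ccnb2: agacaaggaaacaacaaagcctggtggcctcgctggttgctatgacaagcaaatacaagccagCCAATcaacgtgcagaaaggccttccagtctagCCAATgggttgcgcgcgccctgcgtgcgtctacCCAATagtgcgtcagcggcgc
Top2a: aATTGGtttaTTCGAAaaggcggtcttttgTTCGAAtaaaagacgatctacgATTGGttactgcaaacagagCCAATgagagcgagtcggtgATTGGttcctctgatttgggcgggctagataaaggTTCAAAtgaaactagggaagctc
E2f2 start 1: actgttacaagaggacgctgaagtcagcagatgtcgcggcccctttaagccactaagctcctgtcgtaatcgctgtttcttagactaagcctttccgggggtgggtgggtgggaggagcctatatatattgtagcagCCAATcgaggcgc
E2f2 start 2: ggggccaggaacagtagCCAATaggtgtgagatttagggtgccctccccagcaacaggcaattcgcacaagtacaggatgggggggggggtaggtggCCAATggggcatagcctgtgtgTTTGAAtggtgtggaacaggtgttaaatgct

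E2F letters were found at 8 of 15 starts of replication genes (53.3%), against 2.85% of the 21263 listed starts of all protein-coding genes. The 8 starts belong to Mcm3, Mcm5, Mcm6, Mcm7, Cdc6, Cdt1, Pola1 and Rfc3, and in Mcm5 and in Mcm6 a pair of these matches overlaps. The first match of the Mcm5 pair begins before the stretch printed above and is in capitals only where the second covers it. No such letters were found at the 5 starts of mitosis genes or at the 6 starts of inhibitors, and among 9 starts of cyclins and CDKs only Cdk1 and Cdk2 held them. E2f2 held them past its first start, outside the stretch printed above. CHR letters were at all 5 mitosis starts (Aurka, Plk1, Bub1, Mki67 and Top2a), against 17.6% of all starts. They were also at 4 of 15 replication starts (26.7%), those of Mcm2, Mcm7, Cdc45 and Rfc3, at those of Ccnb2 and Cdk1 among the cyclins and CDKs, at 1 start of E2f2 and at 0 of 6 inhibitor starts. In Ccnb2 the CHR letters lie outside the printed stretch. CCAAT was at all 5 mitosis starts and at 12 of 15 replication starts, against 38.2% of all starts. Only 7.11% of all starts held both CHR and CCAAT letters. The GC box was common in every role, at 29 of 38 starts in all, against 46.2% of all starts.

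The same search was made at related genes listed for comparison. Among 36 starts of other replication genes 8 held E2F letters (22.2%), and among 23 starts of other mitosis genes 16 held CHR letters (69.6%) and 0 held E2F letters. Of 21 starts of other G1/S control genes, 7 held E2F letters (33.3%) and the same number held CHR letters. At the 14 starts of housekeeping genes E2F letters occurred 1 time. A match of letters is a description of the sequence and not evidence that a factor was bound.

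**Figure D1:**
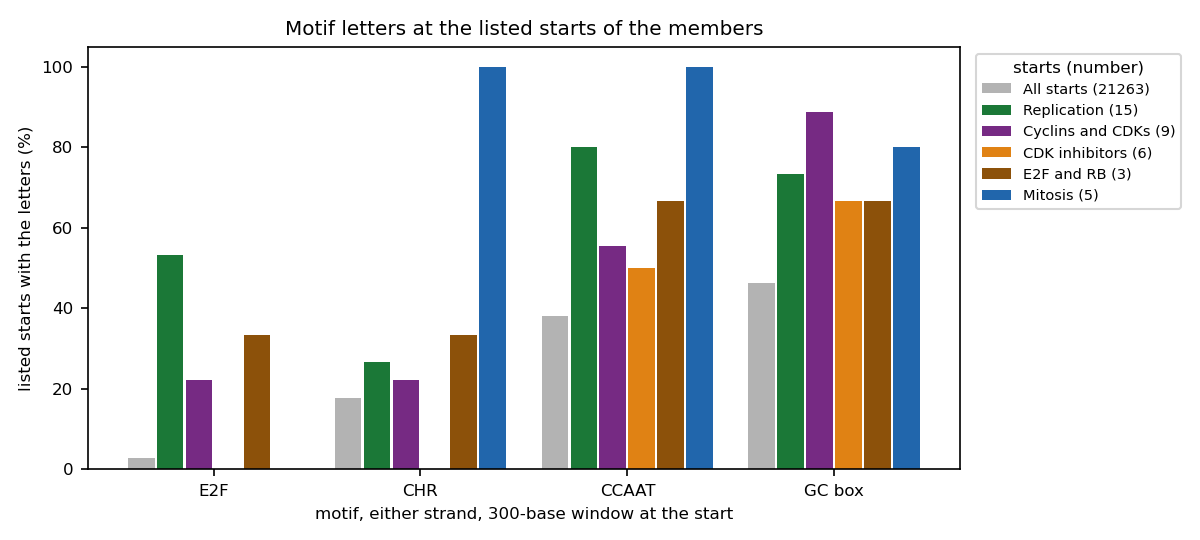
Share of listed starts (vertical axis, percent) that hold the letters of 4 motifs (horizontal axis), for all 21263 starts in grey and for the starts of each role, with their numbers in the key. E2F letters reached 53.3% of replication starts and 0 of 5 mitosis starts, while CHR letters were at 5 of 5 mitosis starts.

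Nearly all of these starts were open in every population. In 32 of the 33 members with a listed start, at least 1 start lay under an F-Seq peak in all 8 libraries, against 8948 of 17492 genes with a listed start (51.2%). The share was 13 of 14 for housekeeping genes, 27 of 27 for other replication genes, 21 of 21 for other mitosis genes and 13 of 16 for other G1/S control genes. The exception was E2f2, which encodes an activating E2F factor. Its first start was under a peak in 7 libraries, all but C10 replicate 1, and its second start was under an F-Seq peak in both C18 libraries and in none of the other 6, although HOMER listed a peak within 1 kb of that second start in all 8. Cdkn1a, the gene of p21, had its first start under no peak in any library and its second under a peak in all 8.

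The strength of the start peaks differed more than their presence. Ranked by F-Seq signal within each list, the start peaks of the replication genes lay at a median of the top 4.27% of the list, those of the inhibitors at 7.91%, those of the mitosis genes at 10.9% and those of the cyclins and CDKs at 13.4%, and the median was 10.3% for the 32 members together and 9.86% for all 8968 genes with a start under a peak in every library. The listed comparison genes had another order: other mitosis genes lay at 3.47%, other G1/S control genes at 6.18%, other replication genes at 7.53% and housekeeping genes at 3.99%. Genes of the same role thus differed between lists, with mitosis genes behind replication genes among the members and ahead of them among the others. Mcm5, a subunit of the MCM helicase, had its start peak in the top 0.447% to 0.905% of the 8 lists. Pcna, the sliding clamp of DNA polymerases, ranged from 0.279% to 1.77%. At the other end of the role, Tyms, the thymidylate synthase gene, ranged from 18.3% to 67.7%. Among the mitosis genes, the start peak of Aurka, a kinase of the spindle poles, lay between 0.422% and 2.67%, and that of Bub1, a spindle checkpoint kinase, between 11.01% and 41.3%. Cdkn2d, the gene of p19, had a start peak within the top 0.255% to 4.04%, while that of Cdkn1a was in the top 5.53% and 7.76% in C2 and between 20.3% and 46.6% in the other 6 libraries, so that the groups did not overlap. Both C2 libraries were ahead of the other 6 at 3 of 32 members (Cdkn1a, Cdkn2c and Rrm2), where this held for 7.75% of all genes. Cdt1, which loads the MCM helicase, went from 3.44% to 7.53% in the 4 libraries of C2 and C18 to 21.2% to 33.6% in those of C13 and C10, again without overlap. The lists as a whole moved this way, with a median of all genes between 6.38% and 7.94% in C2 and C18 and between 11.5% and 13.5% in C13 and C10, and the 4 libraries of C2 and C18 were ahead of the other 4 at 16 of 32 members and at 38.9% of all genes. These ranks are within lists and were not tested.

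Over the whole locus, the members were more open than most loci. A member had a median of 5.70 kb of scaled bases under peaks, against 3.93 kb for all tested loci. The share of the locus under peaks, taken from unscaled bases, had a median of 16.7% against 7.96%. Loci differed in length, with a median of 33.9 kb for members and 41.1 kb for all tested loci. By role the median length ran from 25.1 kb for inhibitors to 40.7 kb for mitosis genes. The median share was 23.4% for inhibitors, 22.9% for the E2F and RB genes, 15.6% for cyclins and CDKs, 13.4% for mitosis genes and 12.0% for replication genes. Cdk6 had the most open bases, at 42.6 kb in the mean of 8 libraries. As a share of the locus, Cdkn1b, the gene of p27, was the most open at 45.9% of 25.1 kb. Pola1, the catalytic subunit of the primase-polymerase, was the least open at 0.94% of 348 kb. Across the 8 libraries the coefficient of variation of a member had a median of 20.8%, against 26.4% for all tested loci. It was largest for Mcm3 at 50.2%, Gins2 at 46.6% and E2f2 at 40.4%, and smallest for Bub1 at 7.60% and Cdkn2c, the gene of p18, at 9.40%.

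The populations with the highest scaled means were C18 for 21 members and C2 for 20, with 2 each for C13 and C10. The lowest was C13 for 18, C10 for 16, C18 for 7 and C2 for 4. The same counts were not made over all tested loci, so they do not single out the members. Both C2 libraries lay above all other 6 at 10 members (Ccnd3, Ccne2, Cdk4, Cdk6, Cdkn1a, Mki67, Gins1, Gins2, Mcm2 and Mcm6), or 22.2% of them, where the same held for 5.96% of tested loci, and both lay below at 0 members, against 3.09% of loci. These are scaled F-Seq values. With scaled HOMER lists C2 was above the mean of C10 and C18 at 11 members and below it at 34. At Mki67 the C2 libraries were then the lowest of the 8, at 0.66 and 0.44 kb. Both C18 libraries lay above the rest at 9 members (Ccnb1, Ccnd2, E2f2, E2f4, Cdkn2d, Top2a, Cdc45, Cdc6 and Mcm5), near the 17% of all loci, and below at Mcm3 and Tyms, against 11.2%. Before scaling, each of these 9 lost the pattern. E2f2 then had 10.4 kb in C18 replicate 1, below the 10.8 kb of C2 replicate 2. Mcm5 had its lowest value of the 8 libraries, 5.58 kb, in C18 replicate 1. Both C13 libraries were below the others at 10 members (Ccnb1, Cdk1, Cdk6, Cdkn2c, Aurka, Mki67, Cdc45, Mcm6, Rfc3 and Rrm2), against 11.3% of loci, and above them at Rb1 and Tyms, against 10.1%. Both C10 libraries were below at 9 members (Ccnb2, E2f1, E2f2, Cdkn1c, Aurkb, Bub1, Cdc6, Cdt1 and Mcm2), against 10.8%, and above at 0, against 5.6%.

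**Figure D2:**
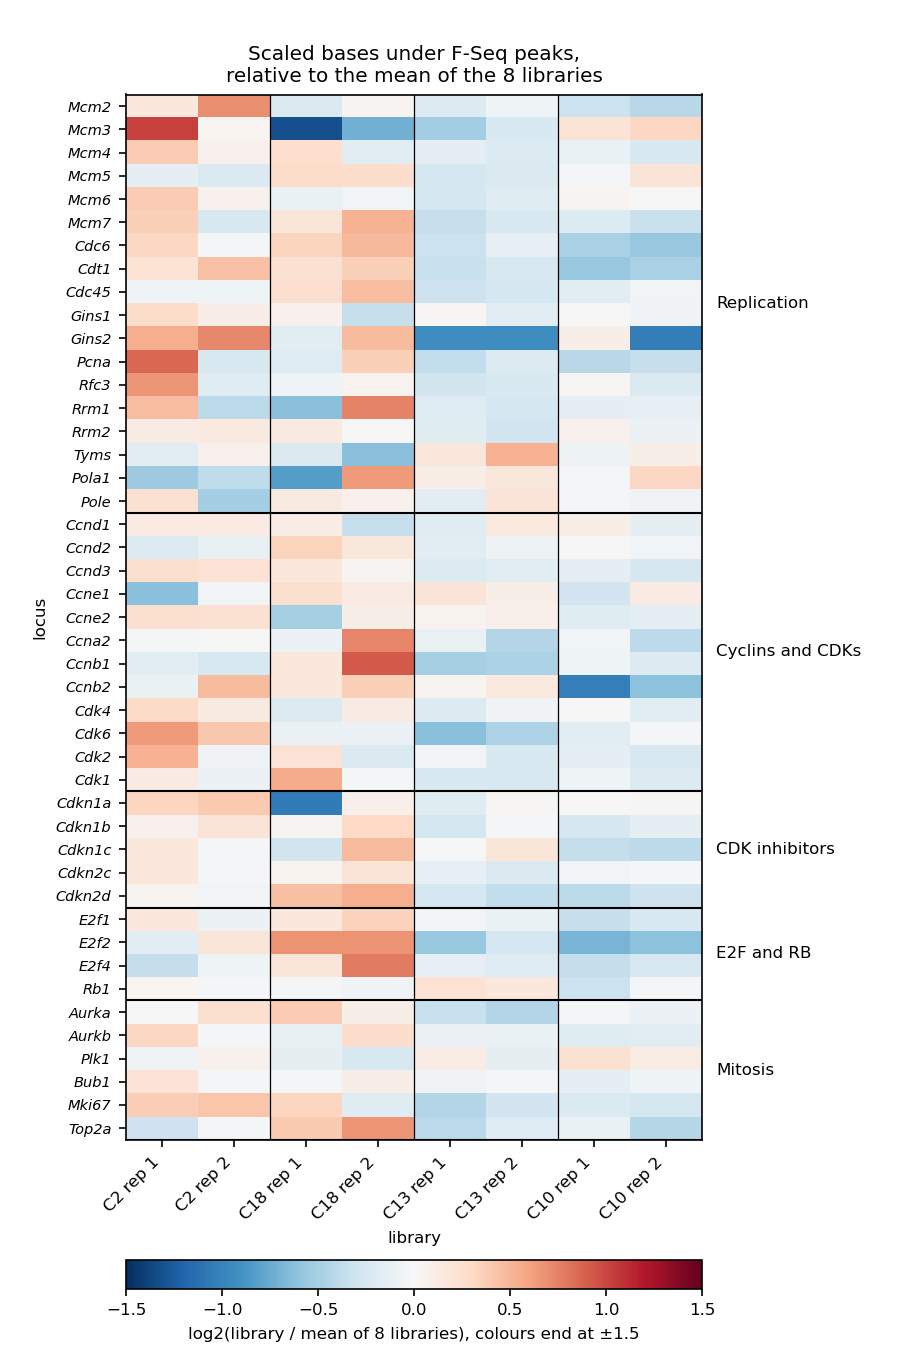
Scaled bases under F-Seq peaks at each member (rows, grouped by role) in each of the 8 libraries (columns), as log2 of the value over the mean of the 8 libraries, with colours ending at ±1.5. E2f2 is high in both C18 libraries, Mcm3 is low in both, and Cdk6 is high in both C2 and low in both C13 libraries.

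C10 and C18 differ in their CD48 label, and this comparison had the most calls. Between them 8 of 45 members passed an adjusted p of 0.05 (17.8%), 1 higher and 7 lower in C10, where 22.1% of all tested loci passed, 7.92% higher and 14.2% lower, so the members were called about as often as loci in general. The median log2 difference of the members was -0.25, against -0.15 for all loci. By role it was -0.64 for the E2F and RB genes, -0.36 for inhibitors, -0.26 for cyclins and CDKs, -0.26 for mitosis genes and -0.18 for replication genes, and it was -0.36 for housekeeping genes, of which 3 of 18 were called lower. Differences are on the log2(bases + 200) scale and are given with the standard error of the fit, with 2 libraries in each population.

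Of the E2F and RB genes, 3 of 4 were lower in C10. E2f2 had 14.9 and 14.9 kb in C18, 5.75 and 6.08 in C10, 8.38 and 10.6 in C2, and 6.29 and 7.73 in C13. The C18 libraries were the highest and the C10 libraries the lowest of the 8, and the difference was -1.30 ± 0.16 (adjusted p = 0.0072). Before scaling, E2f2 had 10.4 and 13.2 kb in C18 and 6.08 and 6.78 kb in C10, and it still passed at -0.85 (adjusted p = 0.026). With HOMER peaks it was -0.96 (adjusted p = 0.0035). E2f1, another activating E2F gene, had 8.77 and 10.03 kb in C18, 6.22 and 6.75 in C10, 8.79 and 7.43 in C2, and 7.66 and 7.37 in C13, a difference of -0.52 ± 0.14 (adjusted p = 0.037). E2f4, a repressive E2F gene, had 10.1 and 15.3 kb in C18, 6.98 and 7.57 in C10, 6.98 and 8.59 in C2, and 8.19 and 7.83 in C13, a difference of -0.76 ± 0.20 (adjusted p = 0.039). The C18 libraries of E2f4 lie far apart, and 5 other loci overlap this one, while 4 overlap that of E2f1. In the gene body without extension E2f2 kept its call, and E2f1 and E2f4 did not. Neither E2f1 nor E2f4 passed before scaling, at -0.07 (adjusted p = 0.83) and -0.31 (adjusted p = 0.48). Rb1, which encodes the pocket protein that restrains E2F factors, had 8.55 and 8.40 kb in C18, 7.01 and 8.54 in C10, 8.90 and 8.60 in C2, and 10.1 and 9.71 in C13, and was not called in any comparison.

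Among the replication genes 2 of 18 were lower and 1 was higher in C10. Cdc6, which loads the MCM helicase together with CDT1, had 11.3 and 12.5 kb in C18, 6.36 and 6.05 in C10, 11.1 and 8.86 in C2, and 7.14 and 8.24 in C13. Its difference was -0.92 ± 0.15 (adjusted p = 0.011), and its locus overlaps those of Wipf2 and Rara. Cdt1 had 7.59 and 8.29 kb in C18, 4.34 and 4.62 in C10, 7.43 and 8.78 in C2, and 5.12 and 5.48 in C13, so C2 and C18 were high and C13 and C10 low. Its difference between C10 and C18 was -0.80 ± 0.14 (adjusted p = 0.013), and its locus overlaps those of Aprt, Galns and Piezo1. In the gene body without extension Cdc6 kept its call and Cdt1 did not. Before scaling the difference was -0.47 for Cdc6 (adjusted p = 0.14) and -0.35 for Cdt1 (adjusted p = 0.25). Mcm3, a subunit of the MCM helicase, ran the other way, with 1.56 and 2.36 kb in C18, 4.49 and 4.83 in C10, 7.91 and 3.996 in C2, and 2.72 and 3.33 in C13. The C18 libraries were the lowest of the 8, and the difference was 1.19 ± 0.33 (adjusted p = 0.044), or 1.61 before scaling (adjusted p = 0.025). HOMER peaks gave -0.20 for Mcm3 (adjusted p = 0.63). The difference lay away from the promoter, and the start peak was called in all 8 libraries. Regions centred 3.0 and 17.6 kb from the start, in the direction of transcription, were called in both C10 libraries and in no C18 library. The second of these regions reaches past the end of the gene.

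Of the inhibitors, 1 of 5 was called. Cdkn2d had 6.12 and 6.52 kb in C18, 3.39 and 3.61 in C10, 4.61 and 4.35 in C2, and 3.71 and 3.47 in C13. The C18 libraries were the highest and the difference was -0.82 ± 0.14 (adjusted p = 0.013), or -0.38 before scaling (adjusted p = 0.20). The locus of Cdkn2d overlaps those of Ap1m2, Atg4d and Kri1, and the gene body without extension was not called. Cdkn1b had 12.0 and 14.3 kb in C18, 9.80 and 10.5 in C10, 12.1 and 13.3 in C2, and 9.69 and 11.5 in C13. Its C2 and C18 libraries thus lay above those of C13 and C10. Between C10 and C18 it was not called, at -0.36 ± 0.14 (adjusted p = 0.10). Before scaling C18 had 8.39 and 12.7 kb and C10 had 10.4 and 11.7 kb, which overlap. Cdkn2c had 6.54 and 7.19 kb in C18, 6.12 and 6.23 in C10, 7.04 and 6.18 in C2, and 5.81 and 5.42 in C13. Cdkn1a had 1.79 and 3.91 kb in C18, 3.72 and 3.75 in C10, 4.62 and 4.86 in C2, and 3.26 and 3.74 in C13, so its C2 libraries were the highest and its lowest was C18 replicate 1. Cdkn1c, the gene of p57, ranged from 4.07 to 7.39 kb over the 8 libraries.

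Of the cyclins and CDKs, 1 of 12 was called. Ccnb2, a B-type cyclin of mitosis, had 1.88 and 2.17 kb in C18, 0.83 and 1.10 in C10, 1.57 and 2.34 in C2, and 1.73 and 1.86 in C13. The C10 libraries were the lowest, at -0.94 ± 0.27 (adjusted p = 0.048). Before scaling the difference was -0.53 (adjusted p = 0.26), and with HOMER peaks it was -0.06 (adjusted p = 0.88). The gene body of Ccnb2 without extension was not called either. Cdk4, a kinase partner of D-type cyclins, had 8.72 and 11.001 kb in C18, 10.1 and 9.06 in C10, 12.3 and 11.04 in C2, and 8.76 and 9.76 in C13. Ccnd1, a D-type cyclin, had 7.91 and 5.74 kb in C18, 7.77 and 6.57 in C10, 7.98 and 7.93 in C2, and 6.45 and 8.07 in C13. Both of these loci overlapped between C10 and C18.

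None of the 6 mitosis genes passed. Top2a, the topoisomerase that untangles sister DNA, came nearest, with 2.55 and 3.09 kb in C18 against 1.82 and 1.45 in C10, 1.57 and 1.93 in C2, and 1.47 and 1.71 in C13, a difference of -0.72 ± 0.24 (adjusted p = 0.070). Aurka had 8.02 and 6.54 kb in C18, 6.12 and 5.80 in C10, 6.17 and 7.29 in C2, and 4.91 and 4.54 in C13. Aurkb, the kinase of the chromosomal passenger complex, had 8.86 and 11.5 kb in C18, 8.49 and 8.52 in C10, 11.9 and 9.49 in C2, and 9.01 and 8.97 in C13. The C10 libraries of Aurkb were the lowest of the 8, but by a small margin.

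**Figure D3:**
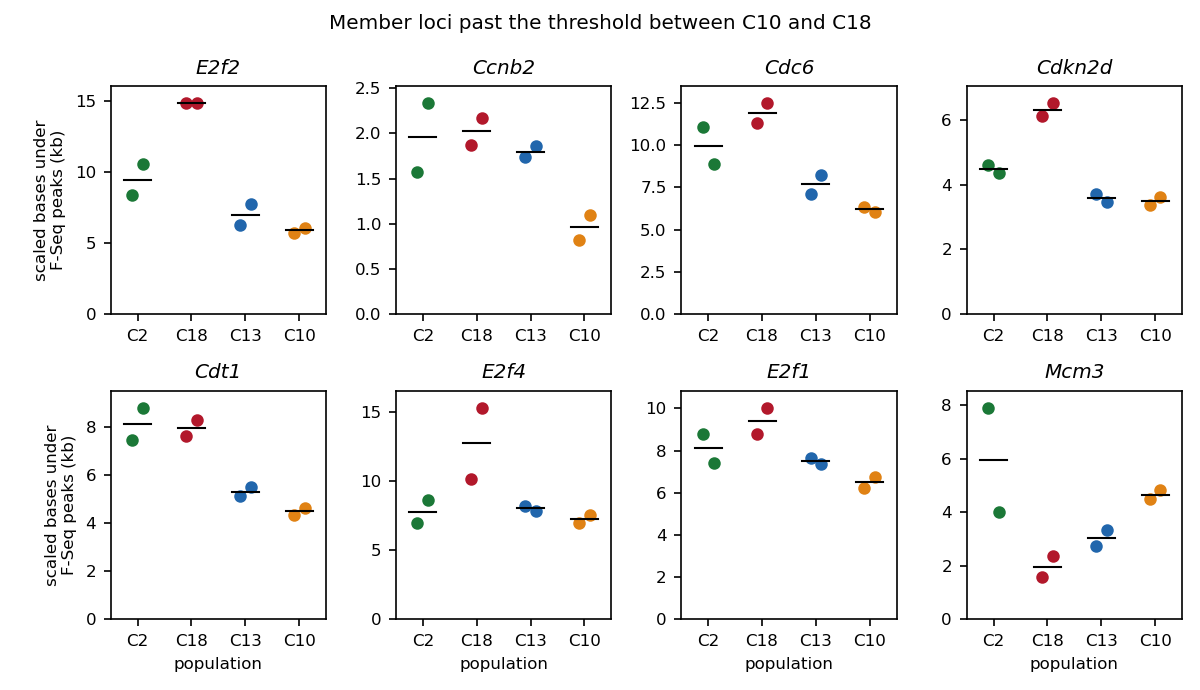
Scaled bases under F-Seq peaks (kb, vertical axis from 0) in each library (points) of the 4 populations (horizontal axis), with a line at the mean of 2 libraries, for the 8 members that passed an adjusted p of 0.05 between C10 and C18. C18 lies above C10 in 7 of the 8 loci and below it in Mcm3; before scaling, only E2f2 and Mcm3 of the 8 pass.

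The direction of these calls depended on scaling. Without it, 4 members passed between C10 and C18, where 21.6% of all loci passed, 18.9% higher and 2.72% lower. E2f2 was lower in C10, and Mcm3, Gins1 at 0.55 (adjusted p = 0.041) and Plk1 at 0.77 (adjusted p = 0.029) were higher, and of all loci 3484 were higher and 502 lower, where scaling gave 1462 and 2625. E2f2 and Mcm3 kept their direction and their call in the F-Seq lists both ways, while E2f2 was 0.57 with unscaled HOMER lists (adjusted p = 0.033). Leaving out C10 replicate 1 left no call among the members or among all loci, and leaving out C10 replicate 2 left E2f2 only, where 2.11% of loci passed. With HOMER peaks 30 members passed, 1 higher (Pola1) and 29 lower, where 47.8% of loci passed, 17.4% higher and 30.5% lower, and 14 of 18 housekeeping genes were lower with a median of -1.09, against -0.91 for the members. Unscaled HOMER lists turned the direction: 23 members passed, all higher in C10, where 67.2% of loci passed, 67.1% higher and 0.0964% lower. The HOMER lists of C18 were multiplied by 2.62 and 2.31 in that scaling. How far the narrow peaks of C18 account for these differences was not tested.

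C13, which lacks CD41 and CD9, was compared with the mean of C10 and C18. None of the 45 members passed, where 6.85% of all loci did, 3.11% higher and 3.74% lower, and at an unadjusted p of 0.05 it was 9 members and 27% of all loci. The median log2 difference was -0.14 for members and -0.06 for all loci, and 33 of 45 members lay below zero. Cdk6, a kinase partner of D-type cyclins, was nearest to the threshold, with 27.7 and 30.8 kb in C13, 39.6 and 39.97 in C18, 37.9 and 41.8 in C10, and 66.5 and 56.6 in C2. Its C13 libraries were the lowest of the 8, and the difference was -0.44 ± 0.11 (adjusted p = 0.056). Mcm5 had 5.47 and 5.67 kb in C13, 7.96 and 7.89 in C18, 6.52 and 7.54 in C10, and 5.99 and 5.66 in C2, with a difference of -0.41 ± 0.11 (adjusted p = 0.070). Within the gene body of Mcm5 it was 0.28, so the lower value lay in the extension, which this locus shares with Hmox1. Cdc45, the helicase cofactor of S phase, had 4.93 and 5.13 kb in C13, 7.30 and 8.44 in C18, 5.47 and 5.96 in C10, and 5.93 and 5.89 in C2, at -0.40 ± 0.11 (adjusted p = 0.080). HOMER peaks called 15 members, 1 higher (Pola1) and 14 lower, where 23.4% of loci passed, 9.59% higher and 13.8% lower. Without the C18 libraries the HOMER lists called 0 members. This last count was not set beside the share of all loci, so it does not single out the members.

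C2, the CD34bright population, was set against the same mean, so these contrasts share the C10 and C18 libraries. No member passed, and no locus of the 18458 did, with either caller. At an unadjusted p of 0.05 it was 9 members, where 16.6% of all loci passed. The median log2 difference was 0.14 for the members and 0.06 for all loci, and 33 of 45 members lay above zero. HOMER lists gave the other sign, with a median of -0.07 for the members and -0.01 for all loci, and 11 of 45 members above zero. The largest value was that of Mcm3, at 0.86 ± 0.29 (adjusted p = 0.22). Cdk6 had the smallest adjusted p, at 0.62 ± 0.11 (adjusted p = 0.11), and was -0.21 with HOMER lists (adjusted p = 0.41). Mcm2, a subunit of the MCM helicase, had 7.06 and 10.3 kb in C2, 5.47 and 6.53 in C18, 5.4999 and 6.08 in C13, and 5.09 and 4.75 in C10, with a difference of 0.64 ± 0.17 (adjusted p = 0.17). Cdt1 stood at 0.42 ± 0.12 (adjusted p = 0.18). With HOMER lists Mcm2 was -0.16 and Cdt1 -0.60, neither called. With the C18 libraries left out, so that C2 was compared with C10 alone, 5 members passed, all of them higher in C2, where 7.95% of loci passed, 5.58% higher. They were Cdt1 at 0.82 (adjusted p = 0.031), Mki67, the gene of the proliferation antigen Ki-67, at 0.61 (adjusted p = 0.034), Cdk6 at 0.62 (adjusted p = 0.038), Ccnd3, a D-type cyclin, at 0.42 (adjusted p = 0.041) and Cdc6 at 0.66 (adjusted p = 0.049). The HOMER lists gave 0 members and 0 loci in the same setting. Mki67 had the other sign in other settings with C18 included: it was -1.32 with HOMER lists (adjusted p = 0.070), and it was called lower in C2 with peaks of both callers, at -0.86 (adjusted p = 0.020), and with unscaled HOMER lists, at -0.96 (adjusted p = 0.042).

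**Figure D4:**
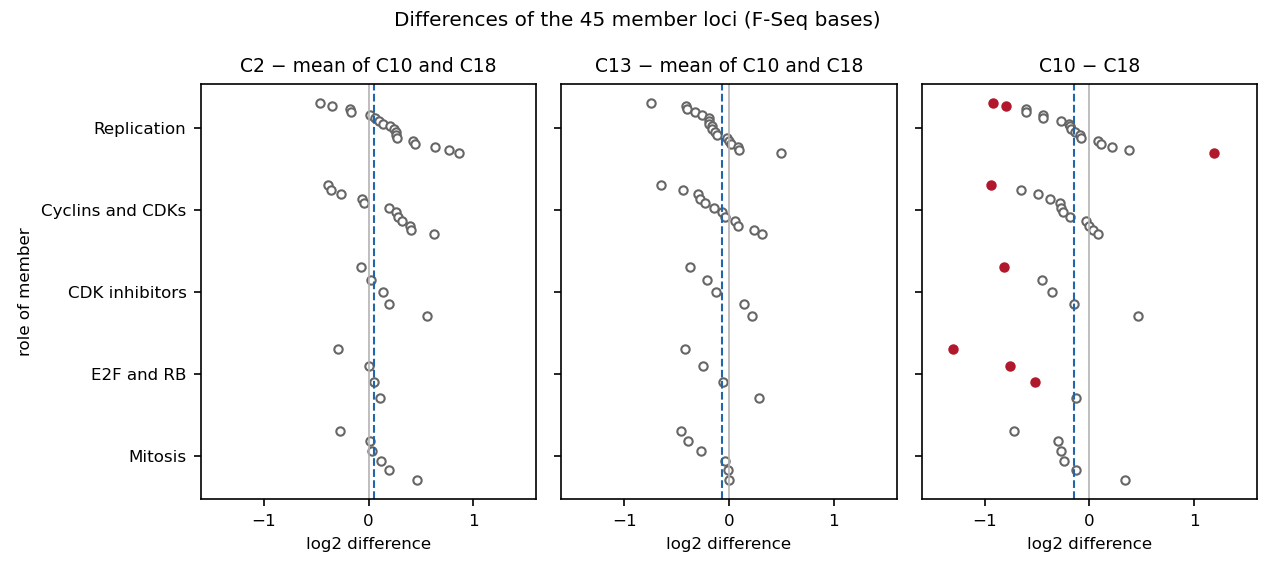
Log2 difference of every member (circles, horizontal axis) in the 3 comparisons (panels), by role (vertical axis), with filled circles for an adjusted p under 0.05 and a dashed line at the median of all tested loci. Filled circles appear only between C10 and C18, with 7 below zero and Mcm3 above it.

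Single regions were then counted, as the merged union of the 8 F-Seq lists. The 45 loci held 430 regions, of which 128 (29.8%) were called in all 8 libraries and 134 (31.2%) in 1 library only, against 21.2% and 39.6% of the 145937 regions in any locus. The share in all 8 libraries was 40.0% for inhibitors, 31.9% for the E2F and RB genes, 31.7% for mitosis genes, 29.4% for cyclins and CDKs and 27.0% for replication genes. Regions in all 8 libraries had a median width of 2370 bases, and 57 of the 128 lay at a listed start. Listed starts of neighbouring genes count here, while the starts of members without a listed start do not. The share of these regions at promoters is therefore not known in full.

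Regions limited to both libraries of 1 population were few. Those of C18 numbered 10, or 2.33% against 1.39% of all regions, at Ccnd1, Cdc45 (2 regions), Cdkn2d, E2f2, E2f4 (2 regions), Gins1, Mcm7 and Pole. HOMER listed a peak in both C18 libraries at 0 of these 10 and in at least 1 of them at 4. Those of C13 numbered 6, against 4.09% of all regions, at Cdk6, Cdkn1b, Cdkn1c, Mcm7, Plk1 and Rb1, and HOMER listed both C13 libraries at 5 of the 6. Those of C2 numbered 5, against 0.554%, at Ccnd3, Cdk6 (2 regions), E2f2 and Pcna, none with a HOMER peak in C2, and the only one of C10 was at Cdkn2c, against 0.856%. The opposite pattern, a region called in the 6 libraries of 3 populations and absent from both of the fourth, occurred 11 times for C18 (against 2.37%), 7 times for C13 (against 1.09%, and 1 of the 7 with a HOMER peak in C13), 1 time for C10 (against 0.05%) and 0 times for C2 (against 0.12%). The case of C10 lay in the gene body of Cdc6 (chr11:98921760-98923416), with no HOMER peak in any library.

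Cdk6 held the most regions, 66, of which 15 were called in all 8 libraries. Both C2 libraries called 35 of the 66, both C10 libraries 27, both C13 libraries 21 and both C18 libraries 20. At 15 regions both C2 libraries had a peak and neither C13 library did, and the reverse held at 2. The 3 regions absent from the F-Seq lists of C13 alone lay 42.9, 53.6 and 129 kb from the start (chr5:3385896-3387649, chr5:3396831-3398215 and chr5:3470848-3475161). HOMER listed no peak in either C18 library at any of these 3, and at the first it did list a peak in C13 replicate 1. In the F-Seq lists the regions that differed between C2 and C13 were spread over the locus, and the start region was called in every library. HOMER did not show this difference: of the 15 regions it listed 3 in both C2 libraries and 10 in neither, and its scaled bases at Cdk6 were 6.26 and 6.88 kb in C2 and 6.03 and 6.06 kb in C13. Ccnd3 held 27 regions, 9 of them in all 8 libraries.

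At E2f2, 5 of 11 regions were called in all 8 libraries, and 2 of these merged regions span the listed starts. A region past the end of the gene was called in both C18 libraries only (chr4:136196656-136197181), and another in both C2 libraries only (chr4:136204046-136204550), where HOMER listed no peak in C2 and 1 in C13 replicate 1. Using only the bases within 1 kb of the listed starts, unscaled, E2f2 was lower in C10 at -1.07 (adjusted p = 0.038), and it was the only one of 33 members called in that setting, where 9.71% of loci passed, 8.78% higher and 0.933% lower. At E2f4 both regions limited to C18 lay past the end of the gene (chr8:105311704-105312695 and chr8:105312880-105314504), where neighbouring loci overlap, and HOMER listed each in 1 C18 library.

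**Figure D5:**
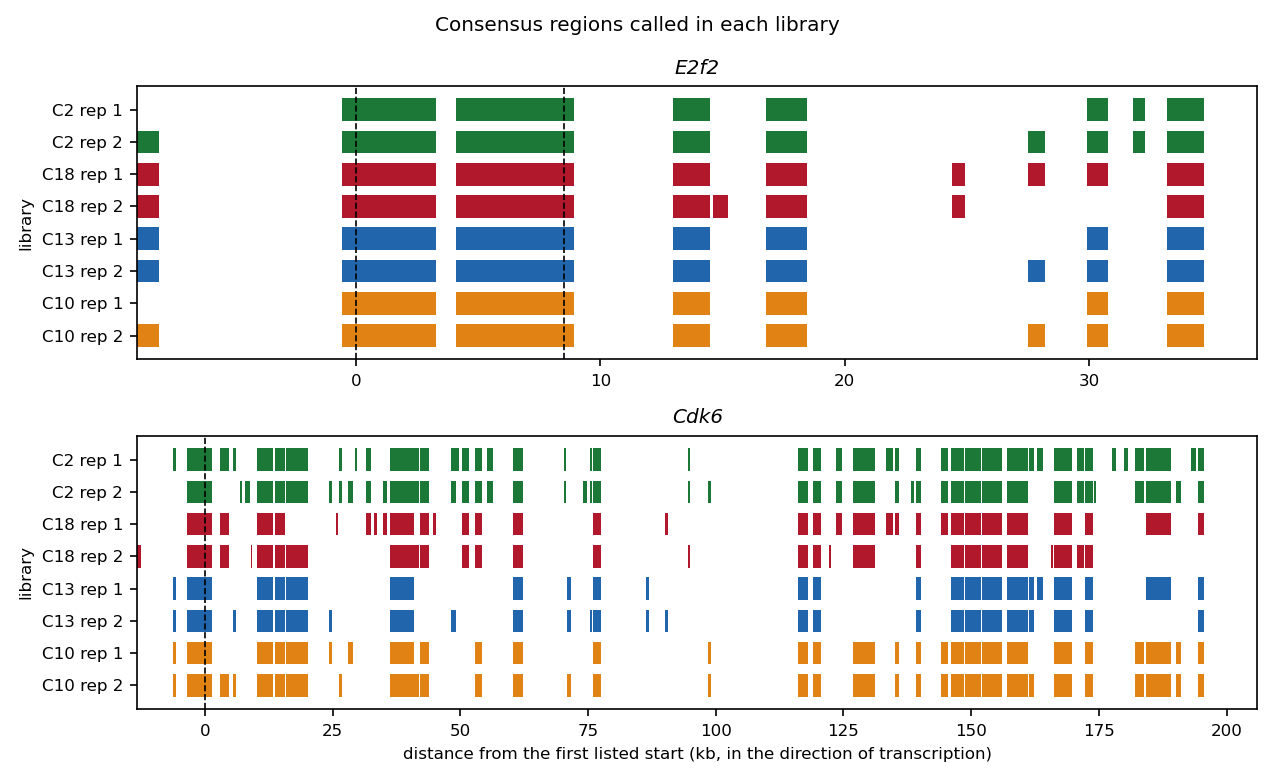
Merged regions at E2f2 and Cdk6 that hold an F-Seq peak in each library (rows), by distance from the first listed start in the direction of transcription (kb, horizontal axis), with dashed lines at listed starts. A box spans the whole merged region, so a library with a short peak inside it shows the full box; Cdk6 shows more boxes in C2 than in C13.

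Other genes of these pathways were measured in the same way. Of 32 other replication genes, 8 (25%) were lower in C10 than in C18 and 0 higher, with a median of -0.40. Of all tested loci 22.1% passed, 14.2% lower and 7.92% higher, with a median of -0.15. The smallest adjusted p was that of Tk1, thymidine kinase, with 13.9 and 12.2 kb in C18, 6.09 and 6.26 in C10, 13.96 and 13.2 in C2, and 5.84 and 6.30 in C13, so the 4 libraries of C2 and C18 lay above the other 4. It differed by -1.05 ± 0.12 between C10 and C18 (adjusted p = 0.0069), and by -0.55 ± 0.10 between C13 and the mean of C10 and C18 (adjusted p = 0.027). Of 25 other mitosis genes, 2 (8%) were lower and 0 higher in C10, with a median of -0.30, against the same 22.1% of all loci. Ube2c, an E2 enzyme of the anaphase-promoting complex, had 6.87 and 4.85 kb in C18 and 1.12 and 1.21 in C10, at -2.13 ± 0.30 (adjusted p = 0.0091). Of 19 other G1/S control genes, 3 were higher and 2 lower (26.3% called, again against 22.1% of all loci). Their median was 0.12, above zero where the members had -0.25. Cdkn2a, which encodes p16 and ARF, had 0.975 and 2.495 kb in C18, 8.60 and 6.04 in C10, 6.61 and 6.43 in C2, and 8.48 and 6.82 in C13, and was higher in C10 by 2.06 ± 0.37 (adjusted p = 0.014). Against the mean of C10 and C18, C13 was lower at Cdc25b, a CDK-activating phosphatase, by -0.77 ± 0.13 (adjusted p = 0.021), and at E2f8, an atypical E2F repressor, by -0.78 ± 0.15 (adjusted p = 0.030). With Tk1 this made 1 gene called in each of the 3 lists, where 3.74% of all tested loci were lower and 3.11% higher. In C2 none of the genes of these 3 lists passed.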

How the data were processed

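The 8 ATAC-seq libraries, 2 from each of 4 sorted populations, are each represented by a peak list of F-Seq and one of HOMER, as deposited by the authors. The submitters' processing notes name Bowtie 1.0.0, HOMER 1.0 and the build mm10; no F-Seq version is stated there or in the labels. In the F-Seq lists the authors deposited, each peak has a signal that served only to order the peaks of 1 list, and the deposited HOMER lists give a score that was not used. Loci came from the RefSeq gene table of GRCm38.p6, without strand. Bases of a locus under peaks (at least 1 base of overlap) were scaled to the mean covered length, taken as log2(bases + 200), and tested with limma 3.58.1 (R 4.3.3), with 4 group means, eBayes with trend and Benjamini-Hochberg adjustment over the 18458 loci covered in at least 2 libraries, at a threshold of 0.05. The scale understates changes of loci with few covered bases, and the fit assumes the same spread in all populations. Values are given for members past the threshold, for the 3 with the smallest p in each comparison, and for the most and least open members of each role; other genes of the pathways are given by counts and up to 3 smallest adjusted p. Genes named outside this rule were chosen after their values were seen. The members and lists were chosen with earlier results of these data known. For the other pathways, markers and housekeeping genes, lists were written from textbook roles. Replicate numbers did not pair libraries: same-numbered libraries had correlations of their deviations between -0.013 and 0.12. Alternatives were HOMER lists, no scaling, other pseudocounts and filters, stricter peaks, other loci, a replicate block and leaving out libraries; 2 more, both on HOMER lists, were added after seeing the data. Sequence came only from the RefSeq table that holds 250 bases before to 50 after each listed start.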

Additional observations from a re-analysis of the deposited data

How the results depend on the processing

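The counts of called members depended on the caller and the scaling. Between C10 and C18, where 8 were called, HOMER lists gave 30 (with 47.8% of all loci), peaks found by both callers 27 (44.4%), HOMER lists without scaling 23, all higher in C10 (67.2%), no scaling 4 (21.6%), the 50000 strongest peaks 5 (18.1%), the gene body without extension 4 (13.1%), the number of peaks 1 (Top2a; 6.31%) and bases within 1 kb of the own start 1 (E2f2; 9.71%). Leaving out single libraries gave 0 to 13, with 0 without C10 replicate 1, 1 without C10 replicate 2, 13 without C18 replicate 1 and 4 without either C13 library. For C13, where 0 were called, HOMER lists gave 15 (23.4% of all loci), HOMER lists without scaling 11, 10 of them higher (42.02%), both callers 7 (19.99%), no filter 2 (Cdkn2d and Mcm5), bases away from starts 2 (Ccnb1 lower, Tyms higher), and a pseudocount of 1000, loci covered in all 8 libraries (both Cdk6), the 50000 strongest peaks and no extension (both Cdc45) 1 each; leaving out single libraries gave 0 to 3, with 3 without either C18 library. For C2, where 0 were called, leaving out the C18 libraries gave 5, both callers and HOMER lists without scaling 1 each (Mki67, lower in C2), and single libraries 0 to 2, with 2 without C18 replicate 1 and 1 without C18 replicate 2. Counts printed here without a percentage were not set beside the share of all loci, so they do not single out the members. Bases away from starts still hold the starts of members without a listed start. Of 333 values of named members under alternatives, 230 kept direction and side of the threshold, 71 lost and 14 gained the call, and 18 changed sign. Without scaling of the HOMER lists, C10 against C18 turned to 1.00 for Ccnb2, 0.51 for Cdc6, 0.15 for Cdt1, 0.95 for E2f1, 0.57 for E2f2 and 0.027 for E2f4, C13 to 0.16 for Cdc45 and 0.53 for Cdk6, and C2 to -0.25 for Cdt1. With scaled HOMER lists Mcm3 turned to -0.20 between C10 and C18, and in C2 Cdk6 turned to -0.21, Cdt1 to -0.60 (both callers -0.36) and Mcm2 to -0.16. At the own start, E2f1 turned to 0.014 between C10 and C18, and in C13 Cdc45 to 0.064 and Mcm5 to 0.033; without extension Mcm5 was 0.28. E2f2 kept its call between C10 and C18 in 20 of 23 alternatives. For the sign changes the cause was not tested. Precision is limited by 2 libraries per population and by lists without counts.

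With the replicate block, 0 members passed for C2, 0 for C13 and 6 between C10 and C18 (20.1% of all loci), all lower, without E2f1 and Mcm3. The numbers are shared names only, since same-numbered libraries did not deviate together in every pair.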
